A study of Mus musculus with 18 samples.

Results

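Respiratory complex I genes were followed in mouse oocytes as every probe of an Illumina mouse bead array whose annotated gene symbol starts with Nduf. These were 68 of the 45281 probes listed, and they named 44 of 19057 named genes. A probe was kept if its signal exceeded background (detection p under 0.05) on at least 3 arrays, which 63 of the 68 did. Every one of the 44 genes had a kept probe and was among the 12184 genes tested. They comprised 6 core subunits, 29 accessory subunits, 8 assembly factors with Ndufaf names, and Ndufa4, a protein once assigned to complex I and now counted with cytochrome c oxidase. The accessory group included Ndufs5-ps, whose probe is annotated to a pseudogene of Ndufs5 and may also read Ndufs5 transcripts. The mitochondrially encoded subunits were not analysed here.

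Complex I (NADH:ubiquinone oxidoreductase) is the entry point of electrons from NADH into the respiratory chain of the inner mitochondrial membrane. Its core subunits carry the flavin, the iron-sulfur clusters, the quinone site and the proton channels, its accessory subunits surround and stabilise them, and its assembly factors are needed to build the enzyme without being part of it. Fully grown oocytes hold a large stock of mitochondria and depend on oxidation of pyruvate, so nuclear transcripts for this enzyme are part of the maternal store.

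The study examined what transgenes of Zfy1 and Zfy2, zinc finger genes of the Y chromosome, do to transcription in female oocytes. Its 6 genotypes, all XX females of the MF1 outbred strain, were a single-copy Zfy2 transgene (Zfy2), multi-copy Zfy1 (Zfy1_hi), single-copy Zfy2 together with multi-copy Eif2s3y (Zfy2_Eif2s3y), single-copy Zfy1 (Zfy1_lo), a Zfy2 transgene that is not functional (Zfy2_nf), and no transgene (XX). The design text calls Zfy2_Eif2s3y contaminated, with Eif2s3y in only a proportion of the cells. Each genotype had 3 arrays, and each array read a pool of about 100 denuded germinal vesicle oocytes, taken at 4 weeks of age, 45 to 48 hours after PMSG, from at least 2 females. Zfy2 and Zfy1_hi formed batch 2 on a slide of their own, and the other 4 genotypes formed batch 1 on the other slides. In batch 1 all 3 Zfy2_Eif2s3y arrays lay on one slide, while Zfy1_lo, Zfy2_nf and XX had 1 array each on that slide. Comparisons were therefore read within a batch first. Between batches, genotype and batch cannot be told apart.

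All levels are log2 intensities after background correction and quantile normalization, where a difference of 1 is a 2-fold change. Median raw signal was 68.9 to 75.1 on batch 2 arrays and 89.7 to 115 on batch 1 arrays, and replicates correlated across genes at r = 0.972 to 0.988. All 14 oocyte markers with a probe were detected on every array, with a summed level of 37071 to 40981 in Zfy2, 37824 to 40862 in Zfy1_hi, and 43039 to 47772 over the batch 1 genotypes. The Zfy2 probe was detected on all 3 arrays of Zfy2, Zfy1_hi, Zfy2_Eif2s3y and Zfy1_lo and on 0 of 3 in Zfy2_nf and in XX, so it did not separate Zfy2 from Zfy1 transgenes. One Zfy1 probe was detected on 3 of 3 Zfy1_hi, 3 of 3 Zfy1_lo and 1 of 3 Zfy2_Eif2s3y arrays. It was detected on 0 of 3 in Zfy2, in Zfy2_nf and in XX. The other Zfy1 probe was detected on all 3 arrays of every genotype. An Eif2s3y probe was detected on all 3 Zfy2_Eif2s3y arrays and on 0 of 3 in each other genotype, while the other Eif2s3y probe was detected on 0 of 3 Zfy2_Eif2s3y arrays, 3 of 3 Zfy2, 3 of 3 Zfy1_hi and 2 of 3 Zfy2_nf arrays and thus did not follow the labels. Because the oocytes were pooled, fewer cells with a transcript and less transcript per cell cannot be told apart.

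Complex I transcripts were present throughout. The probe used for a gene, the kept one with the highest mean, was detected on all 18 arrays for 41 of the 44 genes. Ndufaf1, Ndufaf6 and Ndufb11 were the exceptions. Ndufb11, an X-linked membrane-arm subunit, was detected on 8 arrays, and on 0 of the 3 Zfy2 arrays. The genes varied less between replicates than most others, with a median within-group SD of 0.17 over the 44 genes and 0.23 over all genes. Ndufab1, the mitochondrial acyl carrier protein, had the smallest spread (SD 0.07) and Ndufaf1, which helps assemble the membrane arm, the largest (SD 0.38).

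Promoters were searched for letters of factors known to act on respiratory genes. These were NRF-1 (GCGCANGCG), the ETS family that includes GABP (CCGGAAG) and YY1 (AAGATGGCG), on both strands. RefSeq windows of 300 bases, 250 before and 50 after a start, were matched by symbol for 39 of the 44 genes (41 windows, build GRCm38.p6), all but Ndufa2, Ndufaf6, Ndufb9, Ndufs1 and Ndufs5-ps. NRF-1 letters were in 10 of 41 windows (24.4%), against 6.25% of all 32851 windows. ETS letters were in 6 (14.6%), against 8.86% of all windows, and YY1 letters in 6 (14.6%), against 1.4%. A match is a string of letters, not a site at which a factor was measured. At least 1 of the 3 was in 48.8% of complex I windows and in 14.8% of all windows.

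Windows are printed for Ndufb10, the gene called within a batch, and for 3 genes with low values in Zfy2 (Ndufb4, Ndufs6 and Ndufb2). They run 5′ to 3′ on the strand of the gene, with motif letters in capitals. Ndufb10 (chr17:24724374-24724673, minus strand) has an NRF-1 match that begins 2 bases before the start. Ndufb4 (chr16:37654319-37654618, minus strand) has 3 NRF-1 matches, which begin 191, 79 and 22 bases before the start. Ndufs6 (chr13:73328433-73328732, minus strand) has an NRF-1 match 15 bases before the start and a YY1 match 33 bases after it. Ndufb2 (chr6:39592315-39592614, plus strand) has none of the 3 letter strings in this window. No matches in these 4 windows overlapped each other.
Ndufb10: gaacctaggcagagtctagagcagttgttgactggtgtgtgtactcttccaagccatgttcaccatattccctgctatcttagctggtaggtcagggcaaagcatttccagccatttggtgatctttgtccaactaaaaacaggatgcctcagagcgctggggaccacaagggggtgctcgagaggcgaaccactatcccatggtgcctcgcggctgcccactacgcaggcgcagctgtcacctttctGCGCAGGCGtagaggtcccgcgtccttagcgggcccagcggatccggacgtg
Ndufb4: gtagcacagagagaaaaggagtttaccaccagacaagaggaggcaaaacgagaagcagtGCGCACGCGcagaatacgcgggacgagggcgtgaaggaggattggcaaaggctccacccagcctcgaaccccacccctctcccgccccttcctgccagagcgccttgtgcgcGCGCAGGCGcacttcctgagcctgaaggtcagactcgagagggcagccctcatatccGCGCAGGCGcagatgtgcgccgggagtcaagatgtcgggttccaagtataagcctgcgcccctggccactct
Ndufs6: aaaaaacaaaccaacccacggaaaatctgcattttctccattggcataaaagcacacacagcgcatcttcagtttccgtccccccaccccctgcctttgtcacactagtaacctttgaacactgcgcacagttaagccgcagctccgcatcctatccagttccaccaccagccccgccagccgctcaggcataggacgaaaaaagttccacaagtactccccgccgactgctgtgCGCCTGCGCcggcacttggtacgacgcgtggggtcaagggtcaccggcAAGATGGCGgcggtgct
Ndufb2: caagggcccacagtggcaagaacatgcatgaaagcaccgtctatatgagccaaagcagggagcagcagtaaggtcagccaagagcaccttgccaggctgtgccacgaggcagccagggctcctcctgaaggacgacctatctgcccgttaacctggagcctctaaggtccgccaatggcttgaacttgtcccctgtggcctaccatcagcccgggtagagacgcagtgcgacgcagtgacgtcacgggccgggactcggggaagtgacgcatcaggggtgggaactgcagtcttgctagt

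Adding a functional Zfy transgene within batch 1 left nearly every complex I gene without a call. Calls were made where the limma fit gave an adjusted p under 0.05. In Zfy2_Eif2s3y against the mean of XX and Zfy2_nf, 1 of 44 genes was called, where 11.3% of all genes were. That gene was Ndufb10, an accessory subunit of the distal membrane arm, and it rose. At an unadjusted p under 0.05 there were 8 of 44, where 26% of all genes passed. In Zfy1_lo against XX, 0 of 44 were called, where 0% of all genes were. At an unadjusted p under 0.05 there were 4, where 7.6% of all genes passed. In the control comparison of Zfy2_nf against XX, 0 of 44 were called, where 0.0739% of all genes were, and 2 passed unadjusted, where 8.74% of all genes did. The median log2 change of the 44 genes was -0.12 for Zfy2_Eif2s3y, -0.10 for Zfy1_lo and -0.03 for Zfy2_nf, beside medians of -0.01, -0.00 and -0.00 over all genes.

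Ndufb10 had 8.66, 8.66 and 8.41 in Zfy2_Eif2s3y oocytes, against 7.68, 8.08 and 8.10 in Zfy2_nf and 8.54, 8.20 and 8.46 in XX oocytes. The Zfy2_Eif2s3y arrays lay above every Zfy2_nf array but overlapped the XX arrays, and the lowest value of the batch was a Zfy2_nf array. The change against the mean of both controls was 0.40 (SE 0.117, limma adjusted p = 0.0377). Against Zfy2_nf alone, where 1 of 44 genes was called and 6.27% of all genes were, it was 0.62 (adjusted p = 0.0108), and against XX alone 0.18 (adjusted p = 0.452). Ndufb10 was also the 1 of 44 genes called by limma's moderated F test for any difference among the 4 batch 1 genotypes (adjusted p = 0.0375), where 7.69% of all genes were.

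A second kept probe of Ndufb10 had a difference of the opposite sign. It read 7.02, 7.10 and 7.10 in Zfy2_Eif2s3y, against 7.13, 7.25 and 7.10 in Zfy2_nf and 7.21, 7.43 and 7.33 in XX, so its Zfy2_Eif2s3y arrays were below every XX array and no higher than the lowest Zfy2_nf array. Its change was -0.17 (limma adjusted p = 0.39 when it stands for the gene). The call on Ndufb10 also ended with slide as a block (0.25, adjusted p = 0.29) and without any one of XX replicate 2, Zfy2_nf replicate 1, Zfy2_Eif2s3y replicate 1 or Zfy2_Eif2s3y replicate 2 (adjusted p = 0.0705 to 0.153).

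**Figure D1:**
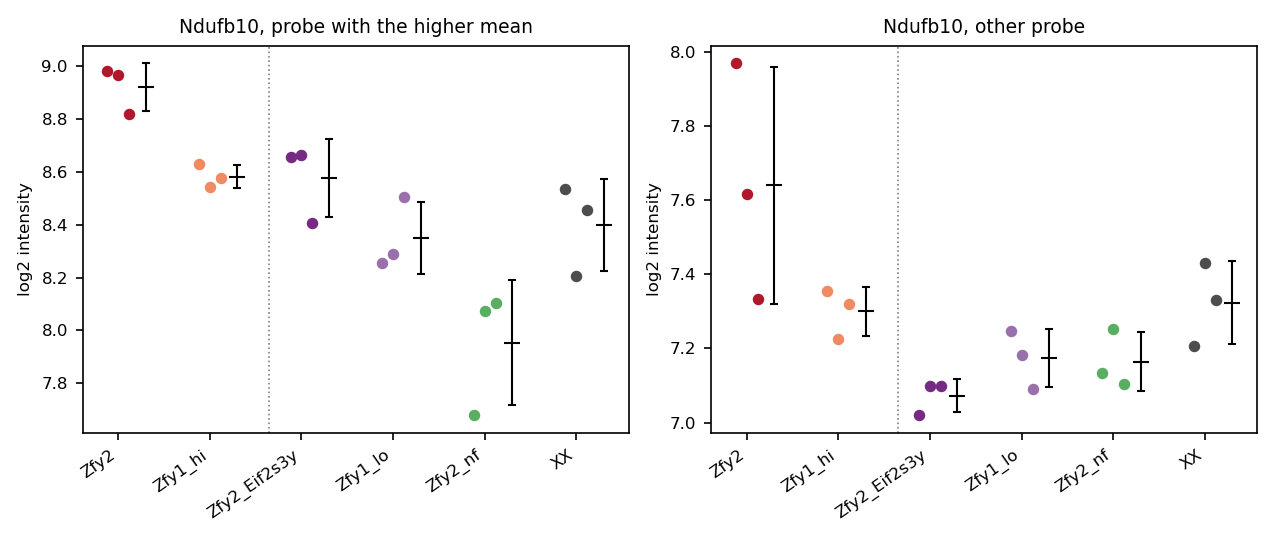
Log2 intensity of Ndufb10 on each of the 18 arrays by genotype, for the probe with the higher mean (left) and for the other kept probe (right). Points are arrays, black bars are the mean and SD of 3 arrays, and the dotted line separates batch 2 (left) from batch 1. The Zfy2_Eif2s3y arrays lie above the Zfy2_nf arrays in the left panel and below the XX arrays in the right panel.

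No core subunit was called in the batch 1 comparison with both controls (0 of 6). Ndufs3, a subunit of the quinone-binding module, had 7.62, 7.58 and 7.19 in Zfy2_Eif2s3y, against 7.67, 8.08 and 7.46 in Zfy2_nf and 7.86, 7.83 and 7.64 in XX. Its groups overlapped through a low Zfy2_nf array, and the difference was -0.30 (SE 0.147, limma adjusted p = 0.218). Ndufs1, the largest iron-sulfur subunit of the NADH-oxidising module, had 5.79, 5.40 and 5.94 in Zfy2_Eif2s3y, against 5.91, 5.91 and 5.47 in Zfy2_nf and 6.01, 5.95 and 5.85 in XX. The ranges overlapped, and the difference of -0.14 (adjusted p = 0.589) became 0.014 without Zfy2_Eif2s3y replicate 2. Ndufs8, which holds iron-sulfur clusters of the quinone module, had 7.52, 7.65 and 7.35, against 7.80, 7.48 and 7.71 in Zfy2_nf and 7.83, 7.56 and 7.69 in XX, a difference of -0.17 (adjusted p = 0.633) with overlapping groups. Ndufs7, Ndufv1 and Ndufv2 lay between -0.09 and 0.02.

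Of the 29 accessory subunits, Ndufb10 was the one called. Next by p came the Ndufs5-ps probe, with 10.08, 10.17 and 9.84 in Zfy2_Eif2s3y, against 10.35, 10.29 and 10.26 in Zfy2_nf and 10.49, 10.58 and 10.57 in XX. All 3 Zfy2_Eif2s3y arrays were below all 6 control arrays, and the difference of -0.39 (SE 0.128, limma adjusted p = 0.0574) missed the threshold. Ndufa10, a membrane-arm subunit related to nucleoside kinases, had 10.70, 10.63 and 10.69 in Zfy2_Eif2s3y, against 10.50, 10.43 and 10.46 in Zfy2_nf and 10.40, 10.40 and 10.26 in XX. Its Zfy2_Eif2s3y arrays were above every control array, and the difference of 0.27 (SE 0.0898, limma adjusted p = 0.0665) also missed it. Over the 44 genes, 4 had no overlap between the 3 Zfy2_Eif2s3y and the 6 control arrays, where 14.8% of all genes had none. Against XX alone, a comparison added after the data were seen, 2 of 44 genes were called, both lower. Over all genes 11.3% were called there in either direction. They were Ndufs5-ps at -0.52 (adjusted p = 0.0336) and the membrane-arm subunit Ndufb9 at -0.49 (adjusted p = 0.0375).

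Assembly factors were not called either (0 of 8), with a median of -0.23 and 7 of 8 below 0. Ndufaf4, which acts on the quinone module, had 10.45, 10.47 and 10.49 in Zfy2_Eif2s3y, against 10.70, 10.84 and 10.64 in Zfy2_nf and 10.78, 10.85 and 10.79 in XX. The 3 Zfy2_Eif2s3y pools were nearly equal and below every control pool, and the difference was -0.30 (SE 0.11, limma adjusted p = 0.0968). Ndufaf5, which hydroxylates an arginine of Ndufs7, had 8.82, 8.79 and 8.45 in Zfy2_Eif2s3y, against 8.65, 8.97 and 8.75 in Zfy2_nf and 8.92, 9.27 and 8.88 in XX, with overlapping groups and a difference of -0.22 (adjusted p = 0.258). Ndufaf6, a factor of the phytoene synthase family, was detected on 0 of 3 Zfy2_Eif2s3y arrays, on 2 of 3 Zfy2_nf arrays and on 2 of 3 XX arrays. Its measured means were 4.63 ± 0.05 in Zfy2_Eif2s3y, 5.07 ± 0.40 in Zfy2_nf and 5.11 ± 0.33 in XX (SD, n = 3 arrays each). The dimmest detected probes of the Zfy2_Eif2s3y arrays lay at 4.81. The control means were 1.19-fold (Zfy2_nf) and 1.23-fold (XX) above that level. These folds are not minimum changes, because the lowest array of each control was below it, at 4.75 in Zfy2_nf and 4.72 in XX. The fitted change did not pass the test (limma adjusted p = 0.151).

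Within batch 2, 0 of 44 complex I genes were called by limma in Zfy2 against Zfy1_hi, where 7.49% of all genes were. At an unadjusted p under 0.05 there were 8 of 44, where 20.3% of all genes passed. The median log2 change was -0.08, beside -0.01 over all genes, and 10 of 44 genes had no overlap between their 3 Zfy2 and 3 Zfy1_hi arrays, where 27.3% of all genes had none. With 3 arrays on each side an exact permutation test has a smallest p of 0.1, so the calls depend on limma's pooling of the spread.

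Ndufs6, a zinc-binding subunit of the matrix arm, had the smallest p. Its Zfy2 pools had 9.75, 9.72 and 9.89, against 10.19, 10.35 and 10.15 in Zfy1_hi pools. Every Zfy2 pool was lower, and the difference was -0.44 (SE 0.146, limma adjusted p = 0.0797). Ndufa5, an accessory subunit at the quinone module, had 9.12, 9.03 and 9.19 in Zfy2, against 9.31, 9.60 and 9.81 in Zfy1_hi. The groups again did not overlap and the difference was -0.46 (SE 0.156, limma adjusted p = 0.0886), while its other probe gave -0.14. Ndufs4, the accessory subunit whose loss in mice gives a Leigh-like encephalopathy, had 9.81, 9.87 and 9.86 in Zfy2, against 9.55, 9.69 and 9.51 in Zfy1_hi, higher on every Zfy2 array at 0.26 (adjusted p = 0.157). The 4 probes of Ndufs4 ranged from -0.02 to 0.26.

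Among core subunits, Ndufs3 had 7.01, 7.26 and 7.48 in Zfy2, against 7.51, 7.73 and 7.81 in Zfy1_hi, lower on every Zfy2 array at -0.43 (SE 0.17, limma adjusted p = 0.148). Ndufv1, which binds NADH and the flavin, had 9.66, 9.80 and 9.86 in Zfy2, against 9.84, 10.05 and 9.80 in Zfy1_hi, with overlapping groups and a difference of -0.13 (adjusted p = 0.61). Ndufs7, which holds the last iron-sulfur cluster before the quinone, had 7.73, 7.83 and 7.89 in Zfy2, against 7.92, 7.98 and 8.0 in Zfy1_hi, a difference of -0.15 (adjusted p = 0.622) in which each Zfy2 array was lower. The core subunits named here lay lower in Zfy2, and none passed the test.

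Among assembly factors, Ndufaf4 had 10.05, 10.39 and 10.33 in Zfy2, against 10.58, 10.61 and 10.53 in Zfy1_hi, without overlap and at -0.32 (SE 0.127, limma adjusted p = 0.154). Its partner Ndufaf3 had 6.24, 6.38 and 5.80 in Zfy2, against 6.24, 6.58 and 6.66 in Zfy1_hi, where the groups overlapped and the difference was -0.35 (adjusted p = 0.44). Ndufaf2, a late-stage factor related to Ndufa12, had 10.49, 10.36 and 10.49 in Zfy2, against 10.41, 10.15 and 10.15 in Zfy1_hi, at 0.21 (adjusted p = 0.379). The remaining assembly factors lay between -0.02 and 0.38.

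**Figure D2:**
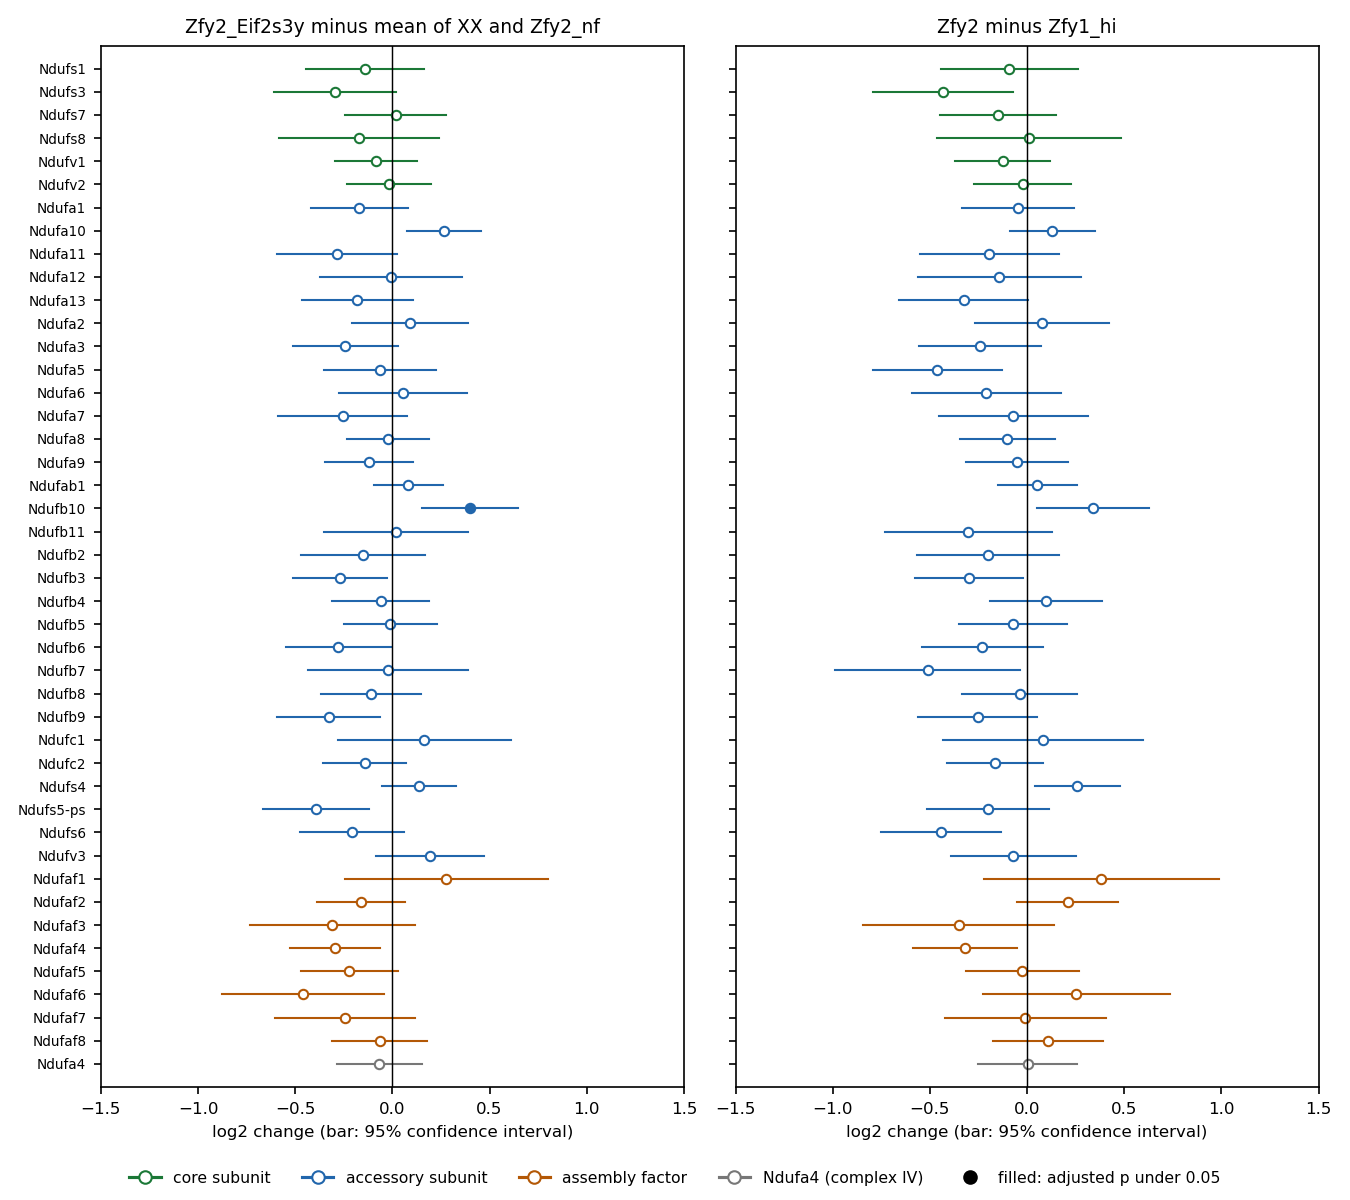
Log2 change of each of the 44 Nduf genes in Zfy2_Eif2s3y minus the mean of XX and Zfy2_nf (left) and in Zfy2 minus Zfy1_hi (right), both within a batch. Points are fitted changes, bars are 95% confidence intervals, colours mark roles and a filled point has an adjusted p under 0.05. Ndufb10 in the left panel is the filled point, and every interval stays within a 2-fold change of measured intensity.

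The precision of these same-batch comparisons was set by 3 arrays per genotype. The 95% confidence interval of a gene had a median half-width of 0.27 for Zfy2_Eif2s3y against both controls and of 0.31 for the other 3 comparisons. In each of the 4 comparisons all 44 intervals lay within a 2-fold change of measured intensity in either direction. They include Ndufaf6, detected on 0 of 3 Zfy2_Eif2s3y arrays, and Ndufb11, detected on 0 of 3 Zfy2 arrays. Where a gene was not detected, its interval does not bound the change of the transcript. Changes under 1.5-fold bounded the interval of 33 genes in Zfy2_Eif2s3y against both controls, 31 in Zfy2 against Zfy1_hi, 34 in Zfy1_lo against XX and 37 in Zfy2_nf against XX. The change of batch 1 (Zfy2_Eif2s3y against controls) minus that of batch 2 (Zfy2 against Zfy1_hi) was itself tested, and limma called 0 of 44 genes, where 0.107% of all genes were. At an unadjusted p under 0.05 there were 2, where 6.75% of all genes passed.

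In Zfy2 against XX, limma called 16 of 44 complex I genes, 13 lower and 3 higher. Over all genes 23.2% were called, 12.7% lower and 10.6% higher, so the share of complex I genes lower was above the background and the share higher was not. Called genes were 2 of 6 core subunits, both lower, 12 of 29 accessory subunits, 9 of them lower, and 2 of 8 assembly factors, both lower. The median log2 change was -0.27 over the 44 genes and -0.02 over all genes, with 39 of 44 below 0. With median scaling in place of quantile normalization 11 were called, 10 lower and 1 higher. Without XX replicate 2, the array with the highest complex I levels, 9 genes were called and the median was -0.18. Over all genes 2046 of 12184 were called without that array.

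In Zfy1_hi against XX, which uses the same XX arrays and also spans the batches, 7 of 44 genes were called, 6 lower and 1 higher. Over all genes 9.43% were called, 5.19% lower and 4.24% higher. The median was -0.16, beside -0.01 over all genes. The count was 3 without XX replicate 2, 2 without Zfy1_hi replicate 1 and 3 without Zfy1_hi replicate 3. Over all 12184 genes it was 663, 728 and 659, in that order, beside 1149 with all arrays. Both comparisons set batch 2 against batch 1, so each value below carries genotype and batch together.

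Ndufb2, an accessory subunit of the distal membrane arm, had 6.90, 6.79 and 7.15 in Zfy2 and 7.0, 7.38 and 7.06 in Zfy1_hi, against 7.81, 8.01 and 7.98 in XX. In batch 1 it had 7.97, 7.92 and 7.60 in Zfy2_Eif2s3y, 7.67, 7.40 and 8.11 in Zfy1_lo and 8.03, 7.90 and 8.16 in Zfy2_nf. All 6 batch 2 arrays lay below all 12 batch 1 arrays. How many of all genes separate the batches in this way was not counted. The change was -0.99 (SE 0.173, limma adjusted p = 0.000896) for Zfy2 and -0.78 (SE 0.173, limma adjusted p = 0.0102) for Zfy1_hi.

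Ndufs1 had 5.13, 4.94 and 5.08 in Zfy2 and 5.12, 5.11 and 5.20 in Zfy1_hi, against 6.01, 5.95 and 5.85 in XX. It too was lower on all 6 batch 2 arrays than on any batch 1 array, with 5.79, 5.40 and 5.94 in Zfy2_Eif2s3y, 6.0, 6.51 and 6.01 in Zfy1_lo and 5.91, 5.91 and 5.47 in Zfy2_nf. The change was -0.88 (SE 0.166, limma adjusted p = 0.00148) for Zfy2 and -0.79 (SE 0.166, limma adjusted p = 0.00748) for Zfy1_hi. The probe of Ndufs1 was detected on all 18 arrays. On the Zfy2 arrays its levels were near those of the dimmest detected probes, at 4.85. The size of the change depended on the processing. Under 10 other settings it ranged from -0.89 to -0.36 for Zfy2 and from -0.83 to -0.33 for Zfy1_hi, and it stayed called.

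Ndufb5, a membrane-arm subunit, had 9.71, 9.54 and 9.61 in Zfy2 and 9.73, 9.80 and 9.54 in Zfy1_hi, against 9.98, 10.25 and 10.17 in XX, again without overlap. Its changes were -0.51 (adjusted p = 0.00987) for Zfy2 and -0.44 (adjusted p = 0.0431) for Zfy1_hi by limma. Ndufb4, also of the membrane arm, had 10.42, 10.36 and 10.24 in Zfy2 and 10.10, 10.32 and 10.30 in Zfy1_hi, against 10.96, 10.94 and 10.65 in XX, at -0.51 (adjusted p = 0.0132) and -0.61 (adjusted p = 0.0109). Ndufaf5 had 8.38, 8.51 and 8.58 in Zfy2 and 8.47, 8.62 and 8.45 in Zfy1_hi, against 8.92, 9.27 and 8.88 in XX, at -0.54 (adjusted p = 0.0102) and -0.51 (adjusted p = 0.0274). For each of these 3 genes every batch 2 array was below every XX array.

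**Figure D3:**
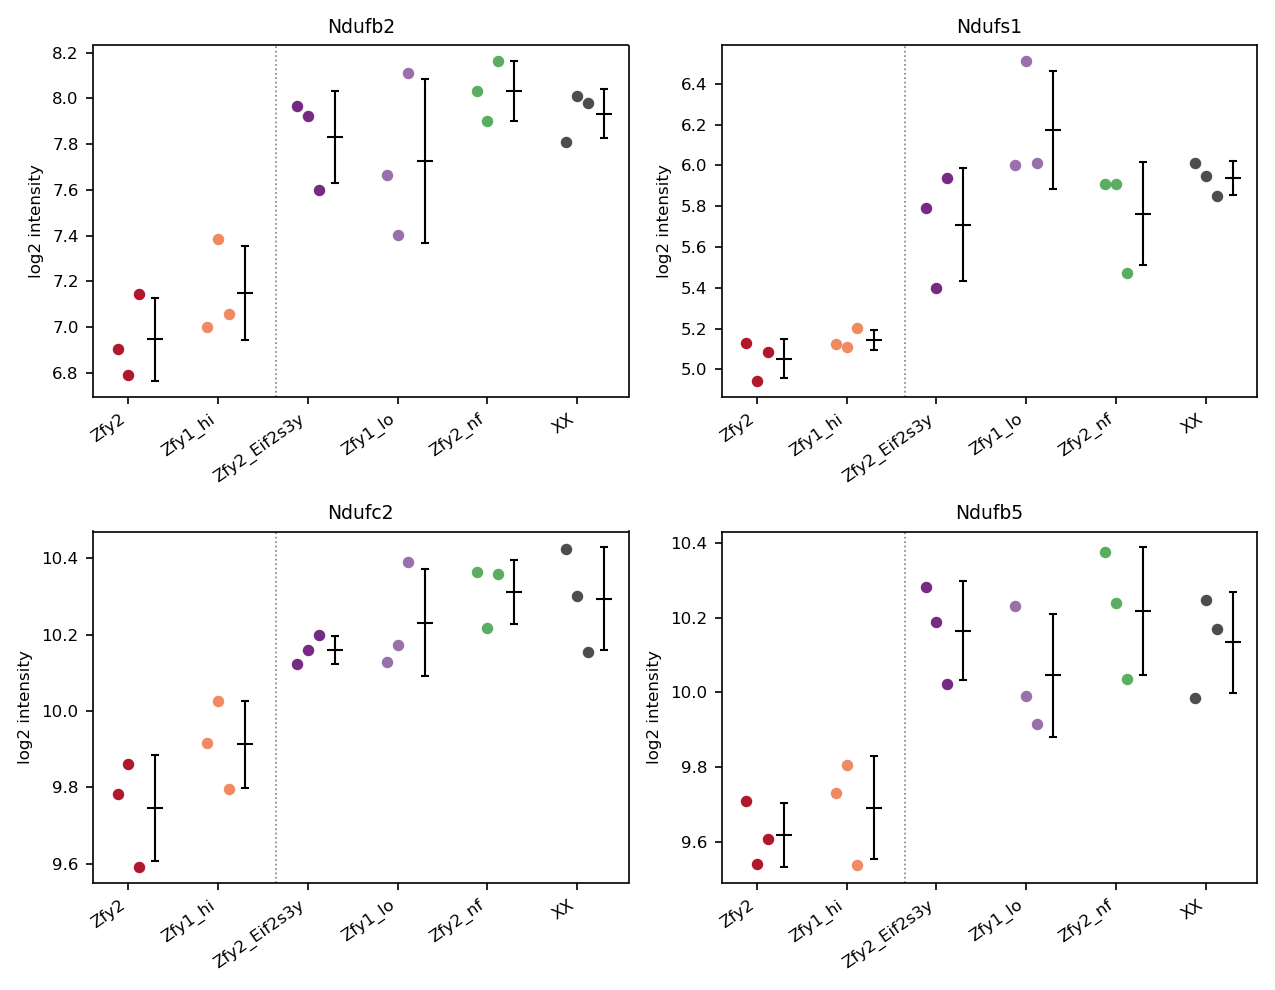
Log2 intensity of Ndufb2, Ndufs1, Ndufc2 and Ndufb5 on each of the 18 arrays by genotype. Points are arrays, black bars are the mean and SD of 3 arrays, and the dotted line separates batch 2 (Zfy2, Zfy1_hi) from batch 1. In each panel all 6 batch 2 arrays lie below all 12 batch 1 arrays.

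The other genes called lower in Zfy2 against XX lay nearer to each other. Ndufs6 was at -0.61 (adjusted p = 0.00743), Ndufa7 of the matrix arm at -0.60 (adjusted p = 0.0248) and Ndufa5 at -0.57 (adjusted p = 0.016) by limma. Ndufa13, a subunit at the junction of the arms also known as Grim19, was at -0.55 (adjusted p = 0.0184), Ndufaf4 at -0.55 (adjusted p = 0.00566) and Ndufc2, a membrane-arm subunit, at -0.55 (adjusted p = 0.00347). Ndufs3 was at -0.53 (adjusted p = 0.0339) and Ndufs5-ps at -0.49 (adjusted p = 0.0262). In Zfy1_hi against XX the probes used for these 8 genes had values from -0.53 (Ndufa7) to -0.10 (Ndufs3), and none was called. For Ndufa5 this depended on the probe: the used one had -0.11 there, and its other kept probe was called lower at -0.77. Ndufs4 was called in Zfy1_hi against XX, at -0.37 (adjusted p = 0.0361), and had -0.11 (adjusted p = 0.489) in Zfy2 against XX. This too depended on the probe. Its 4 kept probes ranged from -0.57 to 0.07 in Zfy1_hi, with 2 called, and from -0.34 to 0.12 in Zfy2, with 1 called.

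Genes higher across batches were few. Ndufab1 had 11.09, 11.11 and 11.23 in Zfy2 and 11.08, 11.06 and 11.14 in Zfy1_hi, against 10.78, 10.71 and 10.84 in XX, higher on all 6 batch 2 arrays at 0.37 (adjusted p = 0.012) and 0.32 (adjusted p = 0.0496) by limma. The call in Zfy1_hi ended without any one of the 6 arrays of that comparison (adjusted p = 0.0645 to 0.149), and with the mean of all its probes Ndufab1 had 0.077 (adjusted p = 0.576) in Zfy2 and 0.16 (adjusted p = 0.294) in Zfy1_hi. Of its 4 kept probes the other 3 were not called and lay between -0.16 and 0.15 in Zfy2 against XX. These 3 included dim probes detected on 10 and 7 of the 18 arrays, at mean levels of 4.84 and 4.81. The remaining probe, detected on all 18, had 10.30, 10.31 and 10.27 in Zfy2, against 10.19, 10.06 and 10.19 in XX. Ndufb10 had 8.98, 8.96 and 8.82 in Zfy2, above every XX array, at 0.52 (adjusted p = 0.0117), and 0.18 (adjusted p = 0.443) in Zfy1_hi. Ndufa10 had 10.62, 10.56 and 10.89 in Zfy2, also above every XX array, at 0.34 (adjusted p = 0.0278).

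Calls that held when any one array was left out were 7 of the 16 in Zfy2 against XX (Ndufab1, Ndufaf4, Ndufb2, Ndufb5, Ndufc2, Ndufs1 and Ndufs6) and 2 of the 7 in Zfy1_hi against XX (Ndufb2 and Ndufs1).

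Where a gene had more than 1 kept probe (14 genes), the probes could be compared. In Zfy2 against XX, probes of 4 of the 14 genes differed in sign, and in 2 of those 4 a probe was called. Both Ndufa5 probes were lower, at -0.57 and -0.91, as were both Ndufs6 probes, at -0.55 and -0.61, and both Ndufaf5 probes, at -0.54 and -0.43. The second Ndufc2 probe gave -0.31 (limma adjusted p = 0.186 over all kept probes). At the level of probes, 21 of 63 were called in Zfy2 against XX, where 22.4% of all kept probes were called in either direction. Of the 21, 18 were lower.

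Zfy2 was also set against Zfy2_Eif2s3y, which carries a Zfy2 transgene too and lies in the other batch. This comparison was added after the data were seen. By limma 4 of 44 genes were called, all lower in Zfy2, where 11.7% of all genes were called in either direction. They were Ndufb2 at -0.88 (adjusted p = 0.00535), Ndufs1 at -0.66 (adjusted p = 0.0191), Ndufb5 at -0.55 (adjusted p = 0.0148) and Ndufc2 at -0.41 (adjusted p = 0.0319). The count was 1 without Zfy2_Eif2s3y replicate 1, where 708 of all 12184 genes were called, and 2 without Zfy2 replicate 2. Ndufc2 had 9.78, 9.86 and 9.59 in Zfy2, against 10.12, 10.16 and 10.20 in Zfy2_Eif2s3y, with no overlap.

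**Figure D4:**
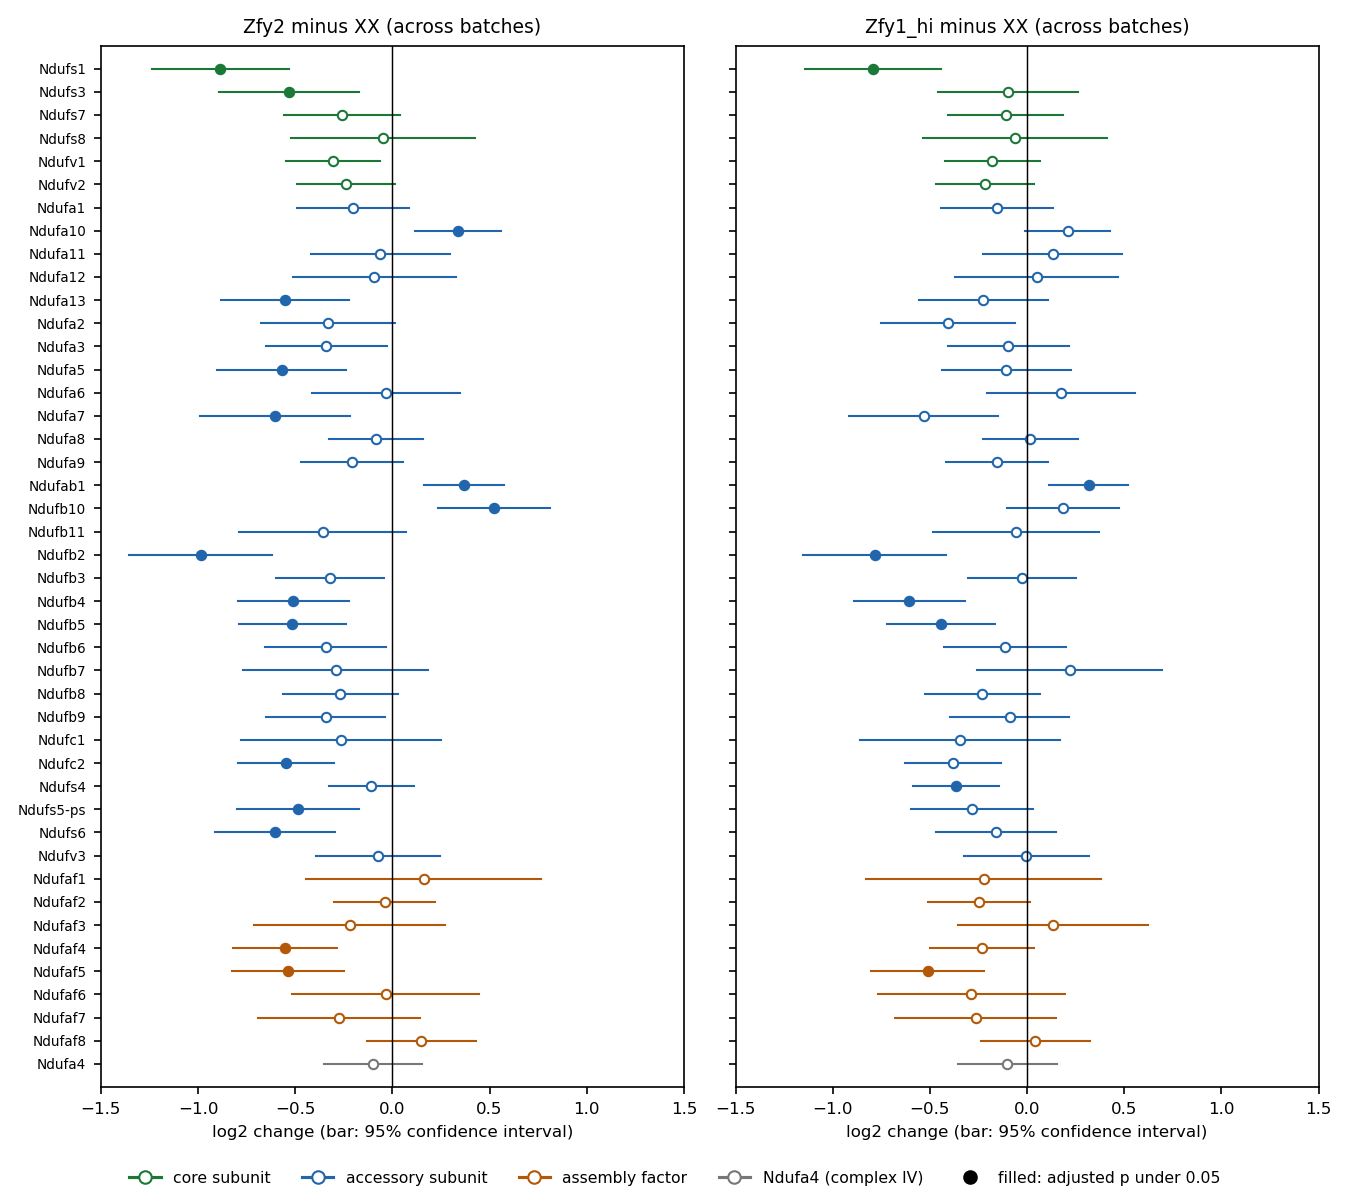
Log2 change of each of the 44 Nduf genes in Zfy2 minus XX (left) and Zfy1_hi minus XX (right), which share the XX arrays and span the batches. Points are fitted changes, bars are 95% confidence intervals, colours mark roles and a filled point has an adjusted p under 0.05. The left panel has 16 filled points, 13 of them below 0, and the right panel has 7, of which 6 lie below 0.

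The median deviation of the genes from their own means over 18 arrays was -0.21 to -0.15 on Zfy2 arrays and -0.12 to 0.05 on Zfy1_hi arrays. It was -0.10 to 0.11 on Zfy2_Eif2s3y arrays, -0.07 to 0.09 on Zfy1_lo arrays, 0.04 to 0.15 on Zfy2_nf arrays and 0.08 to 0.25 on XX arrays. The pooled SD of this median within a genotype was 0.08. The 3 Zfy2 arrays were below all others, and the ranges of the remaining genotypes overlapped with at least 1 other.

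**Figure D5:**
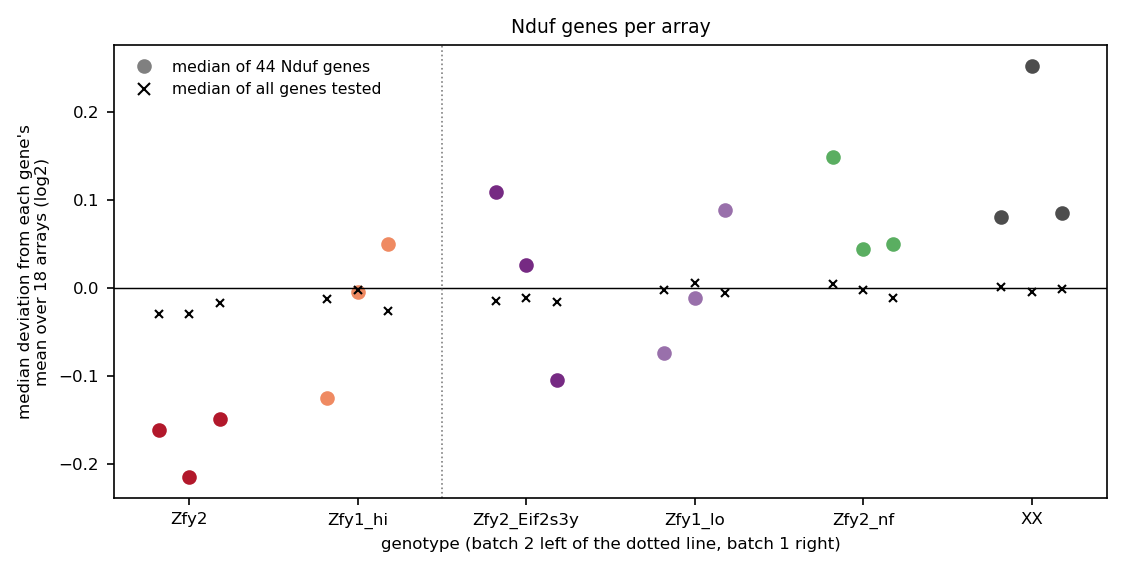
Median deviation of the 44 Nduf genes from each gene's own mean over 18 arrays, per array (log2, filled circles), with the same median over all genes tested (crosses). Genotypes run along the axis, batch 2 left of the dotted line. Zfy2 arrays lie at -0.21 to -0.15 and XX arrays at 0.08 to 0.25, while the crosses stay near 0.

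Of the 9 genes with NRF-1 letters in a promoter window, 5 were among those called lower in Zfy2 against XX (Ndufa5, Ndufaf4, Ndufaf5, Ndufb4 and Ndufs6) and 1, Ndufb10, was called higher. Of the 39 complex I genes with a window 11 were called lower (28.2%). Of all 1390 tested genes with NRF-1 letters 13.3% were called lower there, beside 12.9% of all 9873 tested genes with a window.

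Other genes of the same pathway were read from lists. Of 10 assembly factors of complex I with other names, 0 were called in Zfy2_Eif2s3y against the controls. In Zfy2 against Zfy1_hi limma called Tmem70, a factor also of ATP synthase, higher at 1.09 (adjusted p = 0.0357). Across batches 0 of the 10 were called in Zfy2 against XX or in Zfy1_hi against XX. Of 34 subunits of complexes II to V and cytochrome c, 3 were called in Zfy2_Eif2s3y against the controls, all higher, where 11.3% of all genes were called in either direction. They were cytochrome c (Cycs) at 0.94, the ATP synthase c subunit gene Atp5g3 at 0.70 and the succinate dehydrogenase iron-sulfur subunit Sdhb at 0.44 (limma adjusted p = 0.00415, 0.0137 and 0.0487). In Zfy2 against Zfy1_hi, where 7.49% of all genes were called, only Atp5g3 of the 34 was, higher at 0.67 (adjusted p = 0.0493).

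Across batches the same list had 1 gene higher and 5 lower in Zfy2 against XX, where 10.6% of all genes were higher and 12.7% lower. Cycs was higher at 1.49, and Cox7a2 of cytochrome c oxidase at -1.06 and Atp5e of ATP synthase at -0.88 were among those lower. Its median was -0.13, beside the -0.27 of the complex I genes. In Zfy1_hi against XX, Cycs was higher at 0.89 and Atp5e lower at -0.56.

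Of 17 genes for mitochondrial biogenesis and mitochondrial DNA, limma called 3 higher and 1 lower in Zfy2_Eif2s3y against the controls, and 2 higher and 1 lower in Zfy2 against Zfy1_hi. Over all genes 11.3% and 7.49% were called there. The coactivator of respiratory genes Ppargc1a rose by 0.90 (adjusted p = 0.0109), the outer membrane channels Vdac1 and Vdac2 by 0.40 and 0.48 (adjusted p = 0.0133 and 0.0142), and the mitochondrial RNA polymerase Polrmt fell by 0.99 (adjusted p = 7e-04). In Zfy2 against Zfy1_hi, both transgenic, Ppargc1a was higher by 1.73 (adjusted p = 0.000421) and Vdac1 by 0.40 (adjusted p = 0.0365). Polrmt was lower by 0.73 (adjusted p = 0.0223). Across batches, limma called 3 higher and 3 lower in Zfy2 against XX, where 10.6% of all genes were higher and 12.7% lower. Ppargc1a was at 1.13 and Polrmt at -0.87 there, and Vdac1 was not called. In Zfy1_hi against XX neither Ppargc1a nor Polrmt was called.

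Some markers of follicle cells were lower in these comparisons, and others were not. Of 13 granulosa and cumulus markers with a probe, 5 to 7 were detected on a Zfy2 array and 4 to 6 on a Zfy1_hi array, and their summed level was 406 to 487 in Zfy2 against 764 to 788 in Zfy1_hi. It was 411 to 1010 in Zfy2_Eif2s3y, 838 to 917 in Zfy2_nf and 781 to 894 in XX. Of 9 such markers tested, limma called 2 lower in Zfy2_Eif2s3y against the controls and 1 lower in Zfy2 against Zfy1_hi. Over all genes 11.3% and 7.49% were called there in either direction. It called 3 lower in Zfy2 against XX and 2 lower in Zfy1_hi against XX, where 12.7% and 5.19% of all genes were called lower. In each comparison 0 were called higher. The median log2 change of the 9 was 0.12 (up to 0.70), 0.07 (up to 0.39), -0.31 (up to 0.36) and -0.13 (up to 0.54), in that order. Cyp11a1, the side-chain cleavage enzyme of steroid synthesis, was lower at -1.63 in Zfy2_Eif2s3y against the controls, at -1.68 in Zfy2 against Zfy1_hi and at -1.64 in Zfy2 against XX (limma adjusted p = 0.000112, 0.000554 and 0.000273). The prostaglandin synthase Ptgs2 was lower at -0.56 in Zfy2_Eif2s3y against the controls, at -0.79 in Zfy2 against XX and at -0.65 in Zfy1_hi against XX. Kit ligand (Kitl) was lower at -0.69 in Zfy2 against XX and at -0.76 in Zfy1_hi against XX. Ptx3, a cumulus matrix gene, was detected on no array. Of 14 oocyte markers tested, limma called 3 lower in Zfy2 against XX (Gdf9 at -0.83, Kit at -0.66 and Zp2 at -0.56). In Zfy1_hi against XX it called 3 lower (Gdf9 at -0.91, Zp2 at -0.69 and Nobox at -0.49). Medians of the 14 were -0.13 and -0.02 there, and 0 were called higher. Within batches, Figla and Kit were called lower in Zfy2_Eif2s3y against the controls, and Kit in Zfy2 against Zfy1_hi. Blood and stroma markers summed to 243 to 312 in Zfy2, 256 to 295 in Zfy1_hi, 324 to 346 in Zfy2_Eif2s3y and 251 to 300 in XX. Of 5 tested, limma called 1 lower in Zfy1_hi against XX, Acta2 at -0.89 (adjusted p = 0.00369). There 5.19% of all genes were called lower. In Zfy2 against XX 0 of the 5 were called. The part of these markers in the complex I values was not tested.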

How the data were processed

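Gene expression was measured on 18 arrays, grouped by the genotype and batch in the labels. Per the file headers, the deposited non-normalized table holds the bead intensity and a detection p-value of each probe. The deposited series matrix holds a second intensity on a linear scale, used as an alternative, and GenomeStudio is named in the submitters' processing notes with no settings. From the deposited intensities, log2 values were computed with limma 3.58.1 in R 4.3.3 (background from detection p-values, offset 16, quantile normalization over all arrays). Probes detected on at least 3 arrays were kept (23951). Gene names came from the platform annotation, where 34885 probes had 1 symbol, 18 several and 10378 none. Of 19057 named genes 12184 were tested, 4855 of them with more than 1 kept probe.

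A model of 6 group means (12 residual degrees of freedom) was fitted. Two-sided p-values were adjusted with the Benjamini-Hochberg method across the 12184 genes. The model was tested on simulated data. The number of arrays limits the precision. Pools are labelled as biological replicates.

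The members and the other gene lists were chosen with earlier results of these data known. Values on every array are given for genes called within a batch and for the 3 smallest p per role in 2 comparisons. Genes called across batches were named after their values were seen, and motifs and printed promoters were also chosen then. Motif lengths were set then too, and the counts of promoter matches depend on them: longer NRF-1 and YY1 strings matched fewer windows, and Ndufb10 had no match to the longer NRF-1 string.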

Additional observations from a re-analysis of the deposited data

How the results depend on the processing

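Alternatives were a left-out array, slide or array position in the model, a replicate block, other background corrections, offset, scaling and filters, the series matrix, the mean of a gene's probes, and batch 1 fitted alone. Medians of the 44 genes kept their direction under each of them except Zfy2_nf against XX, which reached 0.01 without one array. They moved by less than the spread between replicates (SD 0.082) except in Zfy2 against XX without XX replicate 2 (-0.18) and in Zfy2 against Zfy2_Eif2s3y without Zfy2_Eif2s3y replicate 1 (-0.059). Counts of called genes depended on them, for complex I genes and over all genes. Over all genes, the 1379 called in Zfy2_Eif2s3y against the controls became 822 without Zfy2_Eif2s3y replicate 2. In Zfy2_Eif2s3y against the controls the count of 1 gene and 1 probe became 0 with slide as a fixed block, array position, the replicate block, median scaling or batch 1 alone. It became 3 genes and 4 probes without background correction or with an offset of 50, 4 genes and 4 probes with the series matrix, 3 genes with probes detected on all 18 arrays, 2 without a filter, and 2 genes and 3 probes against XX alone. Without one array it was 0 to 1 genes and 0 to 2 probes. The F test call became 0 under the same 5 settings as for genes above and with the mean of probes, and was 0 to 1 without one array. In Zfy2 against Zfy1_hi, 1 gene was called without background correction, and 1 gene and 1 probe with the series matrix. In Zfy2 against XX the 21 probes became 13 and the 16 genes 11 (10 lower, 1 higher) with median scaling. Without one array it was 9 to 16 genes and 10 to 18 probes, with a median of -0.35 to -0.18. In Zfy1_hi against XX, 2 genes and 4 probes were called with array position, 4 genes and 5 probes with median scaling, and 4 genes with the mean of probes. Without one array it was 2 to 5 genes and 4 to 7 probes. In Zfy2 against Zfy2_Eif2s3y without one array it was 1 to 3 genes and 2 to 5 probes, with a median of -0.23 to -0.059. The change of Ndufs1 in Zfy2_Eif2s3y ranged from -0.26 to 0.014 without one array and reversed without Zfy2_Eif2s3y replicate 2 (limma adjusted p = 0.975), and that of Ndufb10 to -0.17 with its other probe (limma adjusted p = 0.39). Causes were not tested. Same-numbered arrays of different genotypes deviated with correlations of -0.137 to 0.0877, none over 0.1 in 24 pairs, so the numbers were not taken to pair arrays. With the replicate block Ndufb10 kept 0.40 at a limma adjusted p of 0.0596.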
